A study of Mus musculus with 7 samples.

Results

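The KLF and NR4A transcription factors were followed in mouse neutrophils of healthy tissues and of 3 models of sterile inflammation. The members were the 7 genes Klf2, Klf4, Klf6, Klf13, Nr4a1, Nr4a2 and Nr4a3, taken by symbol from the 28719 gene symbols that the 7 count tables list in all. The choice used no measured value, but it was made with earlier results of these data known. Of the 7, 4 were listed in every table. Nr4a2 and Nr4a3 were listed in none of the 3 run 1 tables, which hold only genes with a UMI (unique molecular identifier, which marks 1 captured transcript), and Klf4 was not listed in spleen of run 1.

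Neutrophils had been sorted as live CD11b+ Ly6G+ cells from male C57BL/6J mice and captured in droplets on the 10X platform. The healthy part held 1 library each of peripheral blood, bone marrow and spleen in each of 2 runs, from untreated mice 6 weeks old in run 1 and 8 weeks old in run 2, and 1 pool of 3 mice gave all tissues of a run. The inflammation library was a single sample of 5 conditions told apart by hashtag oligomers, each a pool of 3 mice aged 8 weeks. They were healthy blood, blood and joint lavage on day 7 of K/BxN serum transfer arthritis (150 µl of serum from arthritic K/BxN mice on days 0 and 2), lung lavage 3 h after 25 ng of intranasal IL-1b, and peritoneal lavage 3 h after 25 ng of intraperitoneal IL-1b. Age and run cannot be told apart, nor can inflamed site and recovery by lavage. Healthy libraries were compared with 2 libraries per tissue, whereas each inflamed condition is 1 pool and allows no test.

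Krüppel-like factors (KLF) are zinc finger proteins that bind GC-rich and CACCC sequences. KLF2 is known for keeping lymphocytes and endothelium quiescent and for restraining myeloid activation, KLF4 for monocyte differentiation, KLF6 for promoting inflammatory gene expression in macrophages, and KLF13 for late chemokine expression in T cells. The NR4A proteins NR4A1 (Nur77), NR4A2 (Nurr1) and NR4A3 (NOR1) are orphan nuclear receptors whose genes are transcribed within minutes of stimulation, through CREB and MEF2 among others, and which act without a known hormone. The MEK5-ERK5-MEF2 cascade is a shared input of Klf2, Klf4 and Nr4a1 in other cells.

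The sequences before the start sites of the 3 NR4A genes and of Klf2 are shown because Nr4a1 and Nr4a3 were both above blood in the arthritic joint and the IL-1b peritoneum, and Klf2 only in the latter. They are from RefSeq on build GRCm38.p6 (mm10), in which all 7 members were found, and run 5′ to 3′ on the gene's strand over the 250 bases before the RefSeq start, less bases that GENCODE vM21 places in an exon of the gene. Capitals mark the CRE core TGACG, on either strand, in the NR4A genes and a match to the MEF2 consensus in Klf2 (that of Nr4a2 and the core of Klf2 are left in lower case).
Nr4a1, chr15:101266596-101266845, plus strand: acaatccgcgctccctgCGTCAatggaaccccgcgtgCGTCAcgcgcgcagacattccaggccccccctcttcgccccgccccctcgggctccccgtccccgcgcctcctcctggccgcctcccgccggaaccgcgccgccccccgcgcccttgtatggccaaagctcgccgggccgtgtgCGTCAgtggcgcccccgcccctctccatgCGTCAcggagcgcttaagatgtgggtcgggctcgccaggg
Nr4a2, chr2:57124004-57124253, minus strand: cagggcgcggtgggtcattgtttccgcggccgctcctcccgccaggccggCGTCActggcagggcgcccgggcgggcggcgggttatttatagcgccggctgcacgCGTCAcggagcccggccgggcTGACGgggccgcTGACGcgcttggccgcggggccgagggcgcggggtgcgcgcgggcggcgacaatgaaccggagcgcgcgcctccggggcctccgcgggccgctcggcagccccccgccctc
Nr4a3, chr4:48045055-48045152, plus strand: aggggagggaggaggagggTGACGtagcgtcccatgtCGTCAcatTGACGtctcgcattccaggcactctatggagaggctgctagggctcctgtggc
Klf2, chr8:72318812-72319032, plus strand: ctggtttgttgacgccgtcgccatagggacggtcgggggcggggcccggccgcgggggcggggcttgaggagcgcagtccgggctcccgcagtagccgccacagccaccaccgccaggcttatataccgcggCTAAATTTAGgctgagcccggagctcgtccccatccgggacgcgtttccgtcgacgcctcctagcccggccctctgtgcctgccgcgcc
Over the full 250 bases, each of the 3 NR4A genes held 4 CRE cores, whereas no KLF member held more than 1. Of the 32851 promoters in the table, 17.8% held at least 1 such core and 0.137% held 4 or more. Among the 9178 promoters with at least 60% GC these shares were 27.1% and 0.370%. The palindromic CRE TGACGTCA, which holds the core, was in none of the 7 and in 1.55% of all. The MEF2 consensus matched in Klf2 and Nr4a2 and in 2.92% of all promoters. The CArG box, the kappaB consensus and the NR4A element AAAGGTCA matched in none of the members, and in 1.47%, 7.25% and 1.34% of all promoters. The GC box GGGCGG was found in all 7 members, against 32.7% of all promoters. The members' windows held 63.6% to 80% GC, against a median of 52.4% in all promoters. A share of this box at like GC was not computed. Matches were sought on both strands and describe letters in this window, not binding.

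By GENCODE vM21 on mm10, Klf2 spans chr8:72319033-72321656 and has 3 exons, Klf6 spans chr13:5861482-5870394, Klf13 chr7:63886351-63938915 and Klf4 chr4:55527143-55532466. Nr4a1 spans chr15:101254269-101274795, Nr4a2 chr2:57106830-57124003 and Nr4a3 chr4:48045153-48086447, each with 8 exons in the transcript with the longest 3′ UTR. That UTR, where the AU-rich pentamer ATTTA marks many short-lived mRNAs, held 3 pentamers in 543 bases of Nr4a1, 3 in 1326 bases of Nr4a2 and 5 in 3095 bases of Nr4a3. It held 1 in 737 bases of Klf2, 7 in 3111 of Klf6, 3 in 5157 of Klf13 and 1 in 982 of Klf4. The density ranged from 0.582 per 1000 bases in Klf13 to 5.52 in Nr4a1.

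Neutrophils of the healthy libraries were taken as cells with S100a8 and S100a9 at 3% or more of their UMIs, which kept 1135 to 3672 cells and 1360064 to 9104133 UMIs per library. In the inflammation library, cells that the authors matched to an ImmGen neutrophil class were used, which left out 4 of 4856 cells and kept 292 to 2857 cells per condition. Levels are in CPM, the UMIs of a gene over all UMIs of the summed cells on the usual depth-scaled unit, and healthy and inflamed tables were made with different reagent versions, so that levels were compared only within a table set. The 8 neutrophil markers, among them S100a8, Csf3r and Ly6g, summed to between 154059 and 392736 CPM in every library and condition. Summed B cell markers reached 842 CPM in the gated cells of spleen of run 2, where only 46.2% of cells passed the gate, and 308 in blood of run 2, against 1.88 to 152 CPM in the other healthy libraries. Summed erythroid markers were at 30348 CPM in the gated cells of blood of run 2, against 252 to 912 in the other healthy libraries, and their part in the results below was not tested. The share of gated cells low in granule genes (Camp, Ngp, Ltf, Lcn2 and Chil3 together under 1% of UMIs), which are made before neutrophils leave the marrow, was 87.1% and 98.4% in blood (runs 1 and 2), 24.7% and 35.2% in the marrow, and 51.9% and 95.9% in spleen. Between 0 and 36 cell barcodes were shared by a pair of libraries. No doublet caller was run on the healthy cells.

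**Figure D1:**
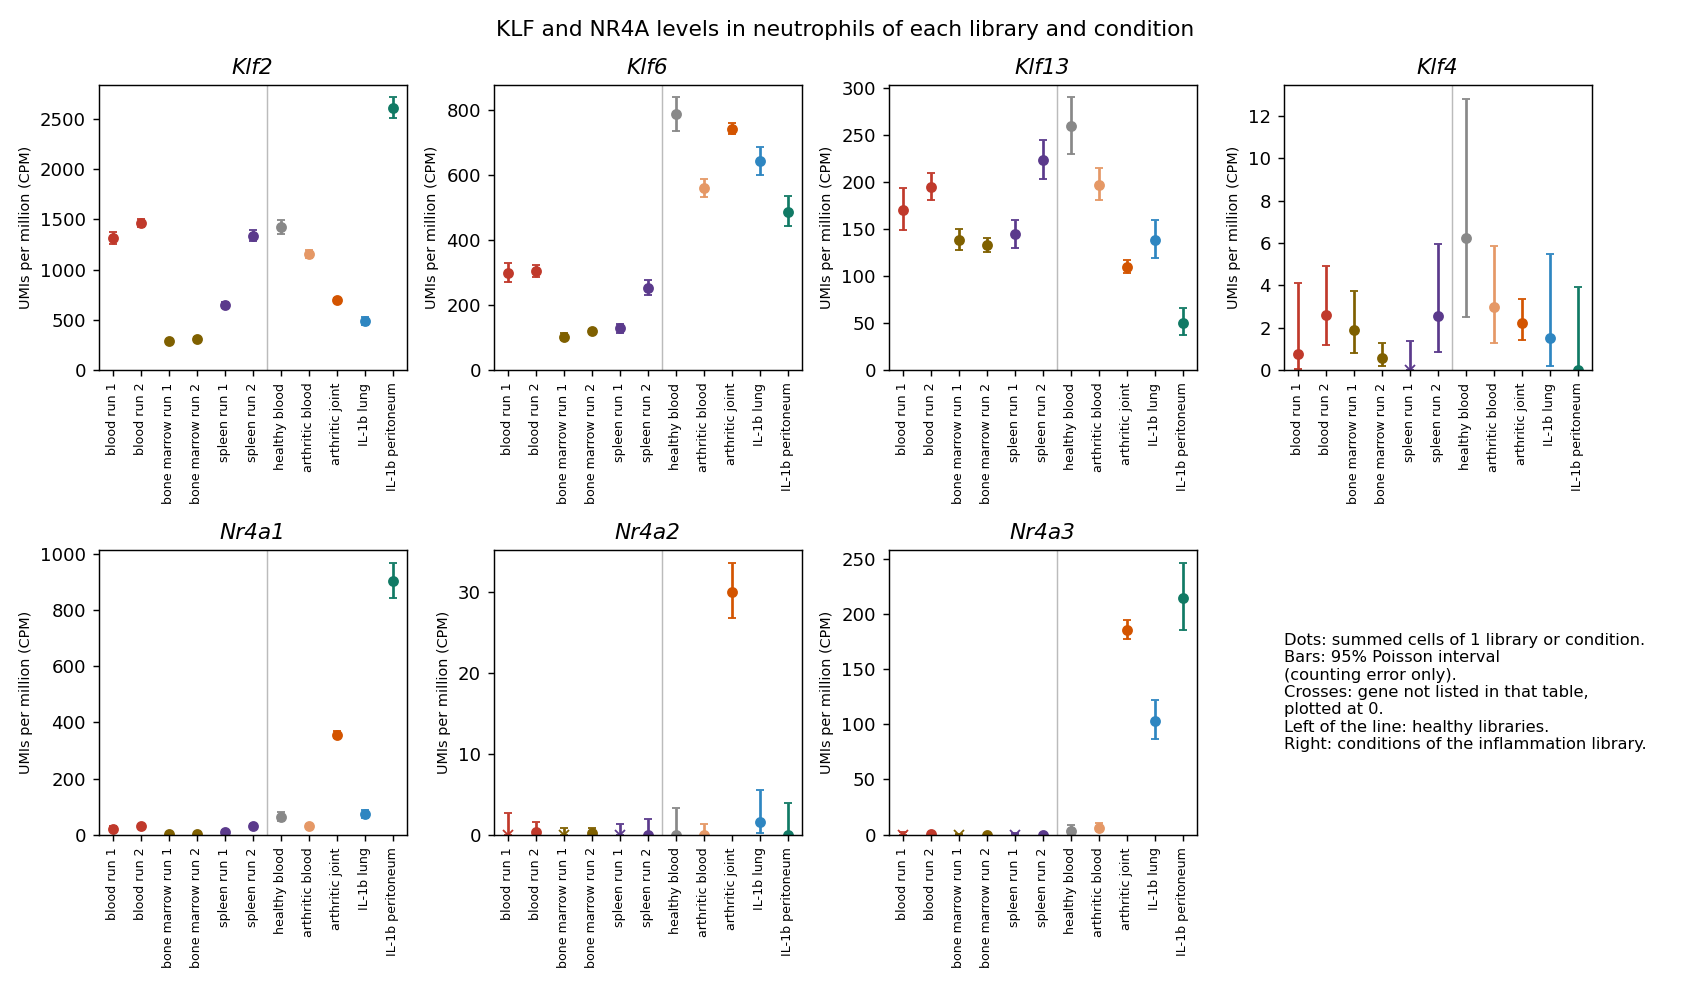
Levels of the 7 members in the summed neutrophils of each healthy library and each condition of the inflammation library (y axis, CPM, on a linear scale of its own in each panel). Bars are 95% Poisson intervals, and crosses mark genes that a table does not list. Klf2 was lowest in both bone marrow libraries among the healthy ones and highest in the IL-1b peritoneum, and within the inflammation library all 3 NR4A genes were higher in the arthritic joint than in healthy or arthritic blood.

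The first comparison asked how the members differ between the marrow, where neutrophils are made, and the circulation and spleen. Klf2 stood at 1316 and 1461 CPM in blood (runs 1 and 2), at 284 and 312 CPM in bone marrow and at 649 and 1339 CPM in spleen. Both marrow libraries lay below every blood and spleen library. The mean was 1389 ± 102 CPM in blood and 298 ± 19.4 in bone marrow (SD, n = 2 each), and Klf2 was lower in bone marrow by 1.93 ± 0.24 on the log2 scale (edgeR's quasi-likelihood test with the run as a block and TMM scaling, Benjamini-Hochberg adjusted p = 0.00407).

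Klf6 was also lowest in both marrow libraries, with 298.5 and 304 CPM in blood, 103 and 120 CPM in the marrow and 128 and 254 CPM in spleen. Its groups did not overlap between blood and bone marrow, and it was 1.16 ± 0.22 lower in bone marrow on the log2 scale (edgeR, adjusted p = 0.0131). Groups of 2 libraries often separate for an unchanged gene as well, and how many of all genes did so was not counted. Klf13 differed little, with 170 and 194 CPM in blood, 138 and 132 CPM in the marrow and 144 and 223 CPM in spleen. Its log2 change from blood to bone marrow was -0.14 ± 0.20 and missed the threshold (edgeR, adjusted p = 0.647). Klf4 had between 0 and 9 UMIs in the gated cells of a library, at most 2.59 CPM, and was left out by the filter on low counts.

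Nr4a1 had few UMIs in healthy neutrophils but the widest tissue contrast of the members tested. It stood at 21.3 and 29.3 CPM in blood, from 29 and 102 UMIs, at 1.65 and 2.09 CPM in bone marrow, from 7 and 19 UMIs, and at 10.4 and 30.7 CPM in spleen, from 28 and 60 UMIs. Every blood and spleen library lay above both marrow libraries. It was lower in bone marrow than in blood by 3.47 ± 0.33 on the log2 scale (edgeR, adjusted p = 0.00223). Nr4a2 and Nr4a3 had at most 2 and 1 UMIs in the gated cells of any healthy library and were not tested.

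Thus 3 of the 4 members that passed the filter were called between bone marrow and blood, all lower in bone marrow, beside 21.7% of the 7809 genes tested (776 higher and 917 lower in marrow, or 479 and 982 without TMM factors, which moved the median gene from 0.02 to -0.26). Without the block for the run, 164 genes were called and adjusted p was 0.0614 for Klf2, 0.118 for Klf6 and 0.0481 for Nr4a1. With either blood library left out, Klf2 and Klf6 were no longer called (adjusted p of 0.101 and 0.191 without blood of run 1, 0.0731 and 0.110 without blood of run 2), and neither was Nr4a1 without blood of run 2 (0.0576).

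Spleen was then set against both. Klf2 was higher in spleen than in bone marrow by 1.49 ± 0.24 on the log2 scale (edgeR, adjusted p = 0.0278), and Nr4a1 by 3.17 ± 0.33 (adjusted p = 0.0143). Klf6 was 0.54 ± 0.22 and Klf13 0.24 ± 0.20 higher in spleen on this scale, and neither passed (edgeR, adjusted p = 0.270 and 0.595). These 2 called members stand beside 2.75% of the 7809 genes. Without the block no gene was called, with adjusted p of 0.336 for Klf2 and 0.283 for Nr4a1. Both members lost the call without either blood library (0.136 and 0.0769 without run 1, 0.137 and 0.1 without run 2), and Klf2 also without bone marrow of run 2 (0.0655) or spleen of run 2 (0.0774). Between spleen and blood none of the 4 was called by edgeR or by DESeq2, beside 0.0512% of all genes, and only Klf6 had an unadjusted p under 0.05 (0.0251, log2 change of -0.61 ± 0.22). The 2 spleen libraries were 649 and 1339 CPM for Klf2, apart by more than the blood libraries were, and the first held 51.9% low-granule cells against 95.9% in the second.

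The same tests in low-granule cells asked whether the order holds where granule genes are low in every tissue. The low-granule cells of the tissues were still not alike. Their summed markers of immature neutrophils stood at 5099 and 5651 CPM in the marrow, 1384 and 1229 in blood, and 3653 and 1254 in spleen. The part of this difference in the results below was not tested. In these cells Klf2 stood at 1721 and 1508 CPM in blood, 542 and 505 CPM in the marrow and 1878 and 1517 CPM in spleen. The spleen libraries were now within or above the blood range, and both marrow libraries stayed below. Klf2 was 1.31 ± 0.22 lower in bone marrow than in blood on the log2 scale (edgeR, adjusted p = 0.00386) and 1.37 ± 0.22 higher in spleen than in bone marrow (adjusted p = 0.00345). The difference from spleen to blood was 0.06 ± 0.21.

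Klf6 in low-granule cells was at 368 and 312 CPM in blood, 149 and 157 CPM in the marrow and 292 and 282 CPM in spleen, and was lower in bone marrow than in blood by 0.82 ± 0.20 on the log2 scale (edgeR, adjusted p = 0.0269, and 0.0753 by DESeq2). Nr4a1 was at 29.9 and 30.4 CPM in blood, 0 and 4.25 CPM in the marrow and 25.1 and 35.8 CPM in spleen. The 0 in marrow of run 1 allows up to 5.25 CPM. Nr4a1 was lower in bone marrow than in blood by 2.95 ± 0.53 (edgeR, adjusted p = 0.00562), a value that rests on few marrow UMIs. Klf13 was at 199 and 196 CPM in blood, 177 and 156 CPM in the marrow and 194 and 228 CPM in spleen, with no call in any contrast. The members called were the same 3 as before between bone marrow and blood, beside 10.2% of 6042 genes, and the same 2 between spleen and bone marrow, beside 8.56%. None was called between spleen and blood by edgeR or DESeq2, beside 0.132%, and none had an unadjusted p under 0.05. Without the block none of these calls remained (adjusted p of 0.0926, 0.189 and 0.139 for Klf2, Klf6 and Nr4a1 from marrow to blood, 0.101 and 0.155 for Klf2 and Nr4a1 from spleen to marrow). From marrow to blood, Klf2 was not called without blood of run 1 (0.0603), and Klf6 was not called without blood of run 1 (0.386), blood of run 2 (0.113) or bone marrow of run 1 (0.163).

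**Figure D2:**
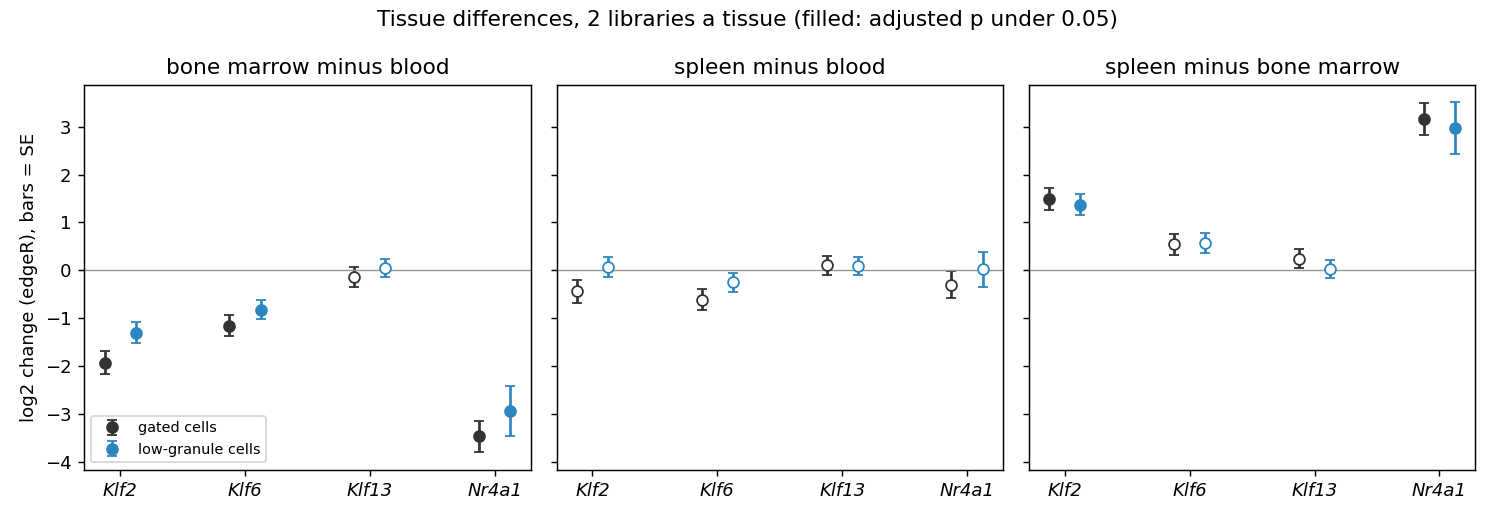
Log2 change with its SE (edgeR, y axis) of the 4 members that passed the filter on low counts, for each pair of tissues, in all gated cells and in low-granule cells, with 2 libraries per tissue. Filled points have an adjusted p under 0.05. Klf2, Klf6 and Nr4a1 lie below 0 from blood to bone marrow in both sets of cells, and the Klf2 difference between spleen and blood is 0.06 in low-granule cells.

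Within each library Klf2 was higher in cells with fewer granule UMIs. Cells with granule genes at 6% of UMIs or more had 261 and 307 CPM of Klf2 in blood, 207 and 202 in the marrow and 273 and 209 in spleen. Cells with granule genes under 0.3% had 1807 and 1530 CPM in blood, 561 and 522 in the marrow and 2097 and 1521 in spleen. The tissues thus lay close together among granule-rich cells and apart among granule-poor ones, where both marrow libraries were below every other. Klf6 had 111 and 114 CPM in blood, 88.5 and 103 in the marrow and 76.3 and 69.5 in spleen at 6% or more, and 387 and 306, 140.3 and 172, and 315 and 280 CPM under 0.3%. Klf13 went from 69.6 and 125 CPM in blood at 6% or more to 197 and 196 under 0.3%, and in bone marrow from 134 and 114 to 123 and 154. Nr4a1 had 33.2 and 30.1 CPM in blood and 31.1 and 36.0 in spleen under 0.3%. From 0.3% to 1% it had 12.7 and 32.0, and 20.6 and 34.7 CPM, with overlapping intervals in each library. At 6% or more it had 0 UMIs in both blood libraries and spleen of run 2, and 3.22 CPM (1.18 to 7.01) in spleen of run 1. In the marrow it had 0 CPM (up to 32.3) and 10.7 CPM (2.21 to 31.3) under 0.3%, and 2.05 and 1.49 at 6% or more. These marrow intervals under 0.3% overlapped those of blood and spleen, so the tissues were not resolved there. Cells of 1 library share their source, so these values are a description.

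**Figure D3:**
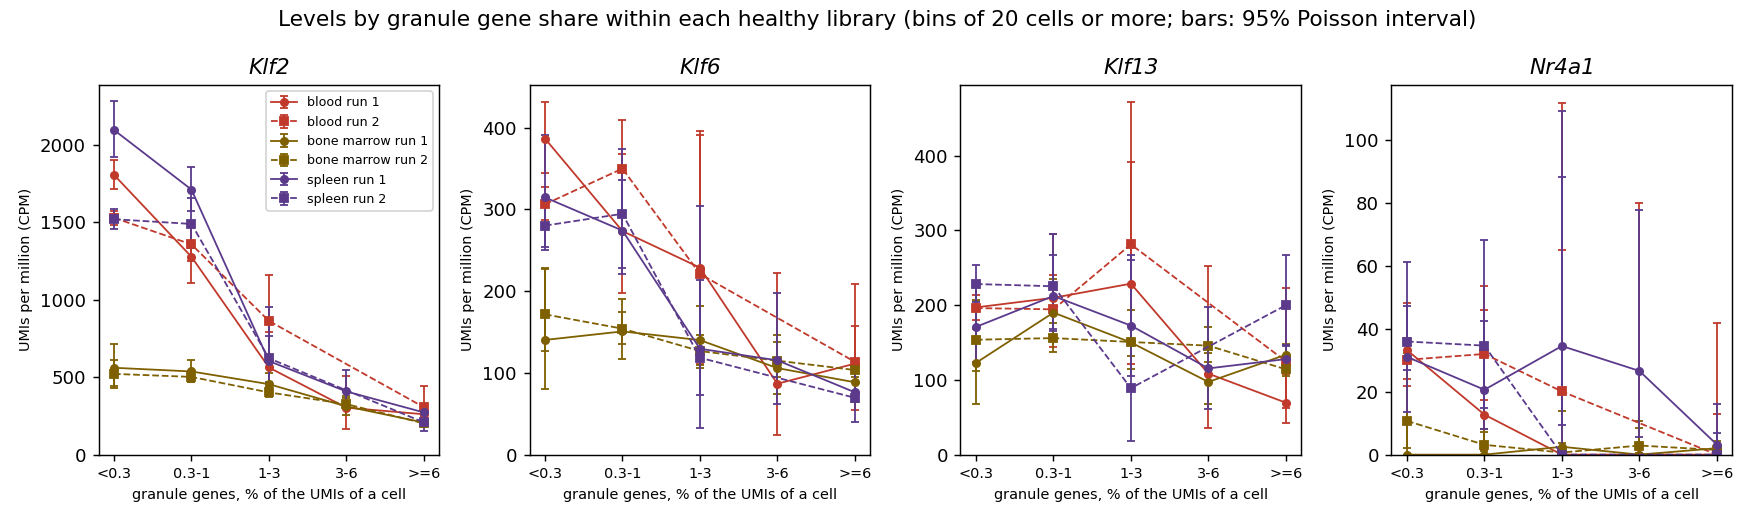
Member levels (y axis, CPM) in cells binned by the share of their UMIs from 5 granule genes (x axis), for each healthy library. Bars are 95% Poisson intervals, and bins with fewer than 20 cells are not drawn. Klf2 lies between 202 and 307 at 6% or more in all 6 libraries and between 522 and 2097 under 0.3%.

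Per cell, after thinning every cell to 500 UMIs, Klf2 was seen in 46.7% and 47.3% of blood cells, 16.3% and 16.5% of bone marrow cells and 34.3% and 45.0% of spleen cells (the largest exact 95% binomial interval was 31.5% to 37.1%, in spleen of run 1). Unthinned, these shares were 62.9% and 63.2%, 56.8% and 51.0%, and 66.8% and 62.0%, since marrow cells held more UMIs (medians of 2698.5 and 2134 against 809.5 and 826 in blood). In 717 red cells of blood of run 2, which should hold little Klf2, the thinned share was 2.09%, at a median of 2753 UMIs. Klf6 was seen in 16.7% and 14.6% of thinned blood cells and in 5.47% and 6.16% of marrow cells, against 0.837% of red cells, whereas its unthinned shares were 26.3% and 24.4% in blood and 28.8% and 26.1% in the marrow. Nr4a1 was seen in 1.41% and 1.63% of thinned blood cells and 0.166% and 0.175% of marrow cells. The share in red cells, 0.279%, has an interval of 0.0338% to 1.00% that covers the marrow values. The red cells came from blood of run 2 alone, so free RNA in the marrow libraries was not measured. They held more UMIs than its gated cells (medians of 2753 and 826), so thinning to 500 kept a smaller part of each red cell. Their shares thus give no floor for those of neutrophils. Of cells, 26 of blood of run 1 had fewer than 500 UMIs and were left out, and none elsewhere.

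RNA of B and T cells, in which Klf2 is abundant, was present to different degrees. Outside the gate Klf2 stood at 1319 CPM in spleen of run 2 and 849 CPM in bone marrow of run 2, where summed B cell markers were 9871 and 6459 CPM. It was at 1542 CPM in blood and 1247 in spleen of run 1, with these markers at 447 and 719 CPM. In blood of run 2 and bone marrow of run 1 it was at 331 and 280 CPM, with 703 and 274 CPM. Inside the gate all 7 B cell markers and all 8 T cell markers were summed at 842 and 209 CPM in spleen of run 2, and T cell markers at 29.1 to 43.2 CPM in the other 5 libraries. With every cell that held a UMI of a B, T or NK cell marker left out, a choice made after seeing the data, the change from blood to bone marrow was -1.88 ± 0.24 for Klf2, -1.11 ± 0.22 for Klf6 and -3.41 ± 0.36 for Nr4a1 on the log2 scale, and all 3 remained called (edgeR, adjusted p = 0.00302, 0.0122 and 0.00162). From bone marrow to spleen it was 1.47 ± 0.24 for Klf2 and 3.31 ± 0.37 for Nr4a1, and both remained called (adjusted p = 0.0203 and 0.00885).

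Among the other KLF and SP factors, 10 of 19 genes were tested between bone marrow and blood, where 9.94% of all genes were called higher in bone marrow and 11.7% lower. Klf10 and Klf3 were lower in bone marrow, by 2.15 ± 0.33 and 1.78 ± 0.24 on the log2 scale, and Klf5 was 2.93 ± 0.67 higher (edgeR, adjusted p = 0.00743, 0.00493 and 0.0238). The median of the 10 was -0.60, beside 0.02 for all genes. The MEK5-ERK5-MEF2 list had 6 of 11 tested genes lower in bone marrow and none higher, with a median of -0.93. Among them were Mef2d, which binds MEF2 sites (-1.46 ± 0.27, adjusted p = 0.0121), and Hdac4 and Hdac5, which repress MEF2 factors (-1.33 ± 0.29 and -1.33 ± 0.32, adjusted p = 0.0199 and 0.0271). Of the cAMP-CREB list 2 of 11 were lower, Pde4b and Crtc3, and 1 was higher, Pde4d (edgeR, log2 changes of -2.56 ± 0.38, -1.01 ± 0.27 and 2.80 ± 0.65). Of 13 partners and corepressors, 2 were higher, Hdac2 (1.87 ± 0.36) and Ctbp1 (1.44 ± 0.24), and 2 lower, among them Kat2b (-0.99 ± 0.24), with a median of -0.22. Of the cAMP-CREB list and the partners, 3 of 11 and 4 of 13 genes were called in either direction, beside 21.7% of all genes.

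Genes described as KLF2 targets in lymphocytes and endothelium were tested for 3 of 5, of which 2 were lower in bone marrow and none higher, again beside 11.7% of all genes lower. Itgb7, an integrin chain, was lower in bone marrow than in blood by 2.25 ± 0.49 on the log2 scale (edgeR, adjusted p = 0.0199). S1pr1, the egress receptor of lymphocytes, was at 0 and 0.862 CPM in blood, 0 and 2.09 in the marrow and 1.12 and 17.9 in spleen, the last in the library with most B and T cell RNA. Immediate early genes, the class that Nr4a1 belongs to, were lower in bone marrow for 10 of 12 genes tested and higher for none, with a median of -3.03, against 11.7% lower and a median of 0.02 for all genes. Atf3 fell by 5.29, Jun by 3.78 and Dusp1 by 3.62 on the log2 scale from blood to bone marrow (edgeR, adjusted p = 0.0028, 0.00514 and 0.00223). NF-kB response genes were lower for 6 of 16, led by Il1b (-4.48 ± 0.42), and glucocorticoid-responsive genes, which include Dusp1 too, for 3 of 6. None of the 7 heat shock genes tested, a list of handling signs, was called by edgeR (median 0.29).

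The second comparison set each inflamed condition against the healthy blood of the same library. In healthy blood Klf2 was at 1422 CPM, Klf6 at 788, Klf13 at 259, Klf4 at 6.22, Nr4a1 at 63.1, Nr4a3 at 3.56 and Nr4a2 at 0 of 1124877 UMIs, which allows up to 2.67 CPM. Ratios below carry exact 95% intervals that cover counting error only. On this scale the median gene was lower than in healthy blood, by 0.36 on the log2 scale in arthritic blood, 0.42 in the joint, 0.86 in the lung and 0.90 in the peritoneum, and totals scaled by TMM factors set these medians at 0.12 to 0.19. Ratios of the members with TMM scaling are therefore given too, and folds of other genes are on library totals unless TMM is named.

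In arthritic blood the changes were small. Nr4a1 stood at 31.2 CPM, 0.494 times healthy blood (0.356 to 0.688, or 0.680 with TMM). Klf2 stood at 1158 CPM (ratio 0.814), Klf6 at 560 (0.711) and Klf13 at 197 (0.761), and with TMM scaling these ratios were 1.12, 0.979 and 1.05, so that the direction of Klf2 and Klf13 depended on the scaling. Nr4a3 had 17 UMIs in arthritic and 4 in healthy blood (ratio 1.78, 0.579 to 7.25, or 2.44 with TMM). Of the 4 members at a mean of 20 CPM or more, 1 was past 2-fold, Nr4a1, beside 5.96% of all genes (25 higher and 227 lower, or 91 and 17 with TMM), and it was not past 2-fold with TMM or with an S100 gate.

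In the arthritic joint all 3 NR4A genes were high. Nr4a1 stood at 357 CPM, 5.65 times healthy blood (4.47 to 7.25, or 8.31 with TMM) and 11.4 times arthritic blood (9.21 to 14.4, or 12.2 with TMM). Nr4a3 stood at 186 CPM from 1912 UMIs, 52.2 times healthy blood (20.4 to 192, or 76.8 with TMM) and 29.4 times arthritic blood (18.3 to 50.6, or 31.4 with TMM). Nr4a2 had 309 UMIs, 30.0 CPM, and 0 in both blood conditions, which makes it at least 11.3-fold higher than in healthy blood (against 3 UMIs there, and with an exact lower limit of 9.10 for the ratio). The joint was the only one of the 5 conditions with more than 2 UMIs of Nr4a2.

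The KLF genes did not share this. Klf2 in the joint was at 699 CPM, 0.491 times healthy blood (0.465 to 0.519), and 0.722 times with TMM. Klf13 was at 110 CPM, 0.424 times (0.372 to 0.484, or 0.623 with TMM). Klf6 was at 744 CPM, 0.944 times healthy blood with an interval of 0.881 to 1.01, and 1.39 times with TMM. Past 2-fold were 4 of 5 members, 2 higher and 2 lower, beside 30% of all genes (428 higher and 862 lower, or 734 and 172 with TMM). With TMM the 2 KLF genes were no longer past 2-fold, and with each cell weighted equally Klf2 was not. Against arthritic blood, 2 of 5 were past 2-fold, both NR4A genes, beside 20.3% of all genes (517 higher and 282 lower), whereas Klf2 was at a ratio of 0.603 (0.644 with TMM), Klf13 at 0.557 (0.595) and Klf6 at 1.33 (1.42).

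**Figure D4:**
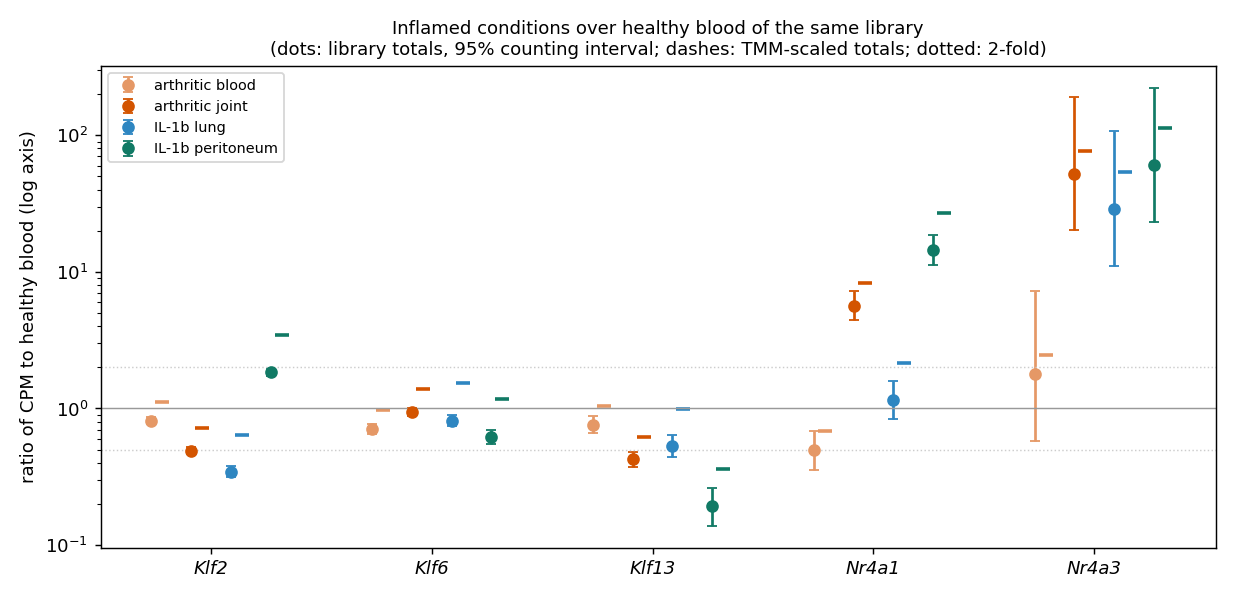
Ratio of each inflamed condition's CPM to that of healthy blood in the same library (y axis, log scale) for the members above a mean of 20 CPM. Dots use library totals with 95% counting intervals, dashes use TMM-scaled totals, and dotted lines mark 2-fold. Nr4a3 is at 28.9 or more in the joint, lung and peritoneum, and Klf2 is above 1 only in the peritoneum on library totals.

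In the IL-1b lung, Nr4a3 stood at 103 CPM from 136 UMIs, 28.9 times healthy blood (11.1 to 108, or 54.1 with TMM). Nr4a1 stood at 72.7 CPM, with a ratio of 1.15 and an interval of 0.838 to 1.59 that includes no change, and 2.15 with TMM. Klf2 was at 488 CPM, its lowest among the 5 conditions, 0.343 times healthy blood (0.313 to 0.376, or 0.641 with TMM). Klf6 was at 643 CPM (ratio 0.816, or 1.52 with TMM) and Klf13 at 138 (0.533, or 0.995 with TMM). Past 2-fold were 2 of 5 members, Nr4a3 higher and Klf2 lower, beside 57.1% of all genes (489 higher and 1824 lower, or 981 and 587 with TMM, when Nr4a1 and Nr4a3 were past 2-fold and Klf2 was not).

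In the IL-1b peritoneum, Klf2 and Nr4a1 were at the highest level of any condition. Klf2 stood at 2614 CPM, 1.84 times healthy blood (1.72 to 1.96, or 3.46 with TMM). Nr4a1 stood at 905 CPM, 14.3 times (11.2 to 18.5, or 27.0 with TMM), and Nr4a3 at 214 CPM, 60.3 times (23.2 to 223, or 113 with TMM). Klf13 was at 49.9 CPM, its lowest level, 0.193 times healthy blood (0.138 to 0.263, or 0.362 with TMM), and Klf6 at 488 CPM (0.620, or 1.17 with TMM). Nr4a2 had 0 UMIs, which allows up to 3.18 CPM. Past 2-fold were 3 of 5 members, 2 higher and 1 lower, beside 58% of all genes (476 higher and 1856 lower, or 968 and 559 with TMM, when Klf2 was past 2-fold as well). Summed markers of immature neutrophils stood at 11921 CPM in the peritoneum, 4412 in the lung, 2268 in arthritic blood, 864 in the joint and 849 in healthy blood, and their part in these values was not tested.

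The 2 IL-1b sites had the same dose and time, and the median log2 ratio of all genes between them was -0.000145. Klf2 in the lung was 0.187 times that in the peritoneum (0.171 to 0.204), a 5.35-fold difference, and Nr4a1 was 0.0803 times (0.0643 to 0.0993), a 12.5-fold difference. Nr4a3 was 0.480 times (0.384 to 0.600), whereas Klf13 was 2.76 times higher in the lung (2.00 to 3.89) and Klf6 1.32 times (1.17 to 1.48). Past 2-fold were 4 of 5 members, 1 higher and 3 lower in the lung, beside 15.5% of all genes (243 higher and 247 lower). The ratios with TMM ranged from 0.0798 for Nr4a1 to 2.74 for Klf13, with the same members past 2-fold under all 5 alternatives.

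In order of level, Klf2 ran peritoneum, healthy blood, arthritic blood, joint and lung, with no overlap of neighbouring intervals. Nr4a1 ran peritoneum, joint, lung, healthy blood and arthritic blood, and the intervals of lung (58.9 to 88.7 CPM) and healthy blood (49.3 to 79.6) overlapped. Nr4a3 ran peritoneum and joint, whose intervals overlapped (186 to 246 and 178 to 194), then lung, arthritic blood and healthy blood, of which the last pair overlapped. Klf6 ran healthy blood and joint, which overlapped (737 to 841 and 727 to 760), lung, arthritic blood and peritoneum, of which the last pair overlapped (532 to 589 and 444 to 535). These orders hold on library totals.

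After thinning every cell to 1000 UMIs, Nr4a1 was seen in 46.3% of peritoneal cells (39.8% to 53.0%), 24.3% of joint cells (22.7% to 25.9%), 4.55% of lung cells, 7.34% of healthy and 3.71% of arthritic blood cells. Nr4a3 was seen in 20.8% of peritoneal, 11.8% of joint and 8.04% of lung cells, against 0.282% of healthy and 0.445% of arthritic blood cells, which shared the same droplet run. Nr4a2 was seen in 1.87% of 2734 joint cells (1.39% to 2.45%) and in 0 of 354 healthy blood cells, which allows up to 0.847% (3 cells), or 1.04% by the exact interval. Klf2 was seen in 78.8% of peritoneal, 66.4% of healthy blood, 65.3% of arthritic blood, 40.2% of joint and 31.8% of lung cells. Klf6 was seen in 54.2% of healthy blood cells, 48.9% of joint cells, 44.1% of lung cells, 41.7% of arthritic blood cells and 32.9% of peritoneal cells. Unthinned, Nr4a1 was in 67.5% of peritoneal, 46.4% of joint and 12.0% of healthy blood cells, and between 61 and 155 cells of a condition had too few UMIs to thin. No cell type that should lack these genes was in this library.

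**Figure D5:**
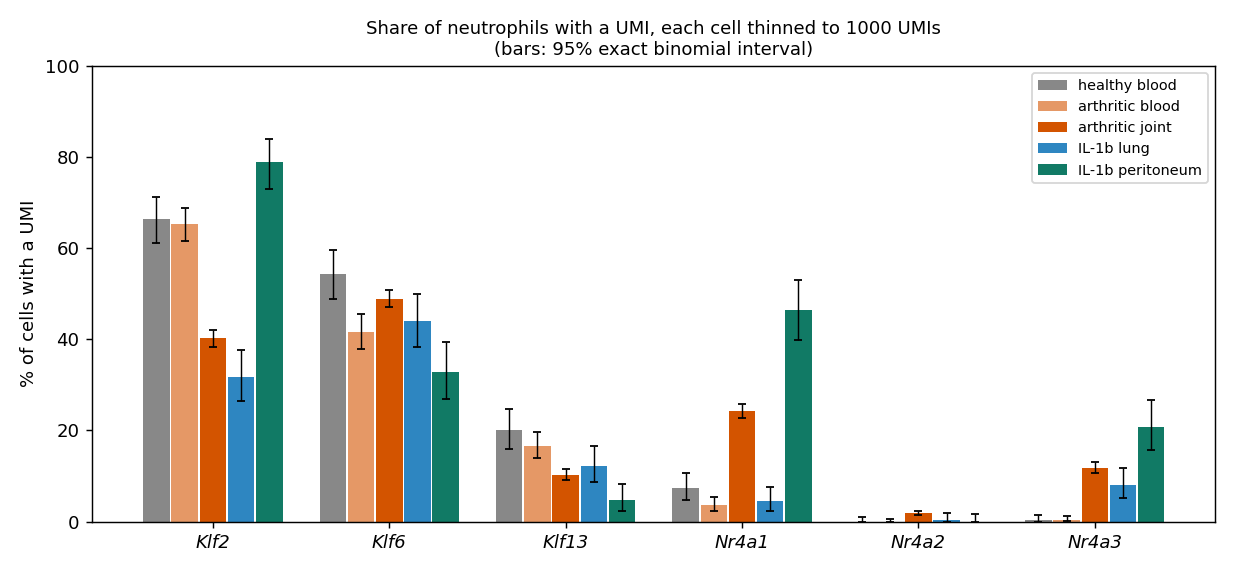
Share of cells with a UMI of each member (y axis, percent) in the 5 conditions of the inflammation library, after thinning each cell to 1000 UMIs. Bars are exact 95% binomial intervals. Klf2 is seen in 78.8% of peritoneal and 31.8% of lung cells, and Nr4a1 in 46.3% and 4.55%.

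In joint cells, the 10% with most UMIs of a gene held 30.7% of those of Klf6, 42.3% of Klf2, 51.5% of Nr4a1, 55.4% of Klf13 and 68.4% of Nr4a3, from 7655, 7193, 3671, 1129 and 1912 UMIs. This share depends on the UMIs per cell, so that the genes cannot be ranked by evenness from it. All 309 UMIs of Nr4a2 lay in 4.38% of cells, with up to 18 in 1 cell. Among thinned joint cells with a UMI of Nr4a1, 22.3% also had one of Nr4a3 (19.2% to 25.7%), against 8.40% of those without (7.24% to 9.68%). Among the 51 thinned cells with Nr4a2, 31.4% had Nr4a3 (19.1% to 45.9%), against 11.4% of the rest. Nr4a1 was seen in 27.4% of thinned joint cells with a UMI of Klf2 (24.8% to 30.1%) and in 22.1% of those without (20.1% to 24.2%). Cells thinned to equal depth share 1 pool, and these values are a description with no test.

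By the authors' ImmGen match, the 2260 joint cells of class GN.Arth.SynF had 403 CPM of Nr4a1 (389 to 416) and 217 of Nr4a3, and the 255 joint cells of class GN.Bl had 128 (106 to 153) and 35.8. In the lung, the 275 cells of class GN.Arth.SynF had 80.2 CPM of Nr4a1 and 471 of Klf2, whereas the 101 peritoneal cells of the same class had 907 and 2302. The site difference was thus present within 1 class. The class was itself assigned from expression.

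Other KLF and SP genes, 7 of 19 at a mean of 20 CPM or more, had none past 2-fold in arthritic blood, 1 lower in the joint (Sp1, 2.01-fold), 2 lower and 1 higher in the lung, and 3 lower (Sp1, Sp3 and Sp4, the last 2.19-fold) and 1 higher in the peritoneum. Klf7 stood at 163 CPM in healthy blood, 97.3 in arthritic blood, 192 in the joint, 445 in the lung and 416 in the peritoneum, 2.74-fold and 2.56-fold higher at the IL-1b sites. On library totals Sp3 was 3.59-fold and Sp1 3.00-fold lower in the lung, and 2.56-fold and 3.27-fold lower in the peritoneum. With TMM scaling these were 1.92-fold, 1.60-fold, 1.36-fold and 1.74-fold, no gene of the list was past 2-fold and lower in any condition, and 2 were higher in the joint, 2 in the lung and 3 in the peritoneum, Klf7 at 5.11-fold and 4.81-fold at the IL-1b sites. Of the MEK5-ERK5-MEF2 list, 1 of 7 was past 2-fold and lower in the joint (Map3k3, 2.81-fold), 4 in the lung, led by Hdac5 (9.54-fold), and 5 in the peritoneum, led by Hdac5 (9.08-fold), and none was higher. Past 2-fold and lower were 20.1% of all genes in the joint, 45.0% in the lung and 46.2% in the peritoneum. Its median was -1.08 in the lung and -1.62 in the peritoneum on the log2 scale, beside -0.86 and -0.90 for all genes. With TMM none of this list was lower and 1 higher in the joint (Mef2d), and 2 were lower at each IL-1b site, Map3k3 and Hdac5. Of 6 genes of the cAMP-CREB list, 1 was higher and 1 lower in the joint (Creb1, 2.70-fold), 2 higher and 1 lower in the lung (Creb1, 2.28-fold), and 3 higher and 1 lower in the peritoneum (Atf1, 2.67-fold), whereas with TMM 1, 4 and 3 were higher and none lower. Past 2-fold and higher were 9.96% of all genes in the joint, 12.1% in the lung and 11.8% in the peritoneum. With TMM these shares were 19.0%, 25.9% and 26.0%. Crem, a gene induced by CREB, was 8.01-fold higher in the joint, 5.39-fold in the lung and 2.55-fold in the peritoneum. Crtc2, a CREB coactivator, was 4.54-fold higher in the peritoneum, and Pde4b 3.23-fold higher in the lung.

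Among the partners, 2 of 8 were lower in the joint (Ncor1, 2.53-fold, and Rxrb, 2.07-fold), 7 of 8 in the lung and 4 of 8 in the peritoneum, and none was higher. These shares too stand beside 20.1%, 45.0% and 46.2% of all genes. With TMM, 0 of 7, 2 of 5 and 1 of 6 partners were lower, and 1 was higher in the peritoneum (Hdac1), beside 4.44%, 15.5% and 15.0% of all genes lower. Kat2b was 6.94-fold lower in the lung and 5.45-fold lower in the peritoneum. Of the KLF2 targets, Itgb7 was 4.29-fold lower in the joint, 6.56-fold in the lung and 4.32-fold in the peritoneum. With TMM these 3 folds were 2.92, 3.51 and 2.30, and those of Kat2b 3.72 and 2.90.

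Of all genes, 9.96% were past 2-fold and higher in the joint, 12.1% in the lung and 11.8% in the peritoneum (19.0%, 25.9% and 26.0% with TMM). Of the immediate early genes, 9 of 15 were past 2-fold and higher in the joint and none lower (median 1.38 on the log2 scale). Egr2 was 44.3-fold, Egr1 33.4-fold and Maff 11.1-fold higher. In the lung 5 of 15 were higher and 1 lower, led by Ier3 (29.8-fold), Egr1 (29.1-fold) and Maff (24.0-fold), and in the peritoneum 5 were higher and 3 lower, led by Egr2 (15.1-fold), Ier3 (14.7-fold) and Maff (8.69-fold). Egr1 stood at 855 CPM in the lung and 137 in the peritoneum, the opposite order to Nr4a1. NF-kB response genes were higher for 8 of 15 in the joint, 15 of 16 in the lung and 16 of 16 in the peritoneum. They were led by Cxcl2, Ccl4 and Ccl3 in the joint (35.3-fold, 22.8-fold and 22.6-fold), by the same genes in the lung (67.3-fold, 33.6-fold and 42.7-fold) and by Tnfaip3, Cxcl2 and Ccl3 in the peritoneum (42.8-fold, 32.2-fold and 28.9-fold). In arthritic blood only Jun of these lists was past 2-fold, 2.03-fold lower. Per1 of the glucocorticoid list was higher in the joint and lung (4.23-fold and 3.32-fold) and 2.56-fold lower in the peritoneum, or 1.36-fold lower there with TMM. Sgk1 and Tsc22d3 were lower in the joint (3.33-fold and 3.10-fold), the lung (3.42-fold and 7.23-fold) and the peritoneum (9.01-fold and 6.09-fold), and Fkbp5 was lower in the joint (2.02-fold, or 1.37-fold with TMM) and the peritoneum (3.65-fold). With TMM, 12 of the immediate early genes were higher in the joint and 10 at each IL-1b site, with 1 lower at each (Fosb in the lung, Atf3 in the peritoneum), 12 of 15, 16 of 16 and 16 of 16 NF-kB genes were higher, and Jun in arthritic blood was 1.48-fold lower. Of the glucocorticoid list, TMM left Sgk1 at 1.83-fold lower in the lung and Fkbp5 at 1.94-fold lower in the peritoneum, and put Fkbp5 at 2.19-fold higher in the lung. On library totals none of the 5 heat shock genes was past 2-fold over healthy blood in any condition, and Hsp90aa1 was 2.02-fold higher in the joint than in arthritic blood. With TMM 3 were higher than in healthy blood in the joint, 2 in the lung and 3 in the peritoneum, with Hsp90aa1 at 2.04-fold, 2.50-fold and 3.43-fold, and none in arthritic blood. Their part in the member results was not tested.

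Across the 6 healthy libraries and 5 conditions, centred within each of the 3 sets of tables, the genes most like each member were named among 2046 genes. They were Rab11fip1 and Adgre5 for Klf2 (Pearson r of 0.984 and 0.974), Neurl3 and Cmip for Klf6 (0.983 and 0.983), Rab14 and Ndufa6 for Klf13 (0.986 and 0.971) and Sema4d and Slc16a6 for Nr4a1 (0.952 and 0.928). For Nr4a3 they were G0s2 (0.977) and a symbol that the inflammation table alone lists, as 7-Sep (0.993). The values of Nr4a2 (Rnh1 and Spp1, 0.982 and 0.966) rest on the joint, and those of Klf4 (Rps3a1 and Cox7a2, 0.956 and 0.955) on few UMIs. The 11 units share libraries, depth and mice, and no test was made.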

How the data were processed

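The deposited values were raw UMI counts, with genes by symbol and 1 column for each cell, which the authors had made with Cell Ranger (versions 1.2.0, 2.1.0 and 3.0.2 by the methods) on mm10. No normalization had been applied. The authors' table of cells gave the hashtag condition and ImmGen class, and hashtag doublets had been removed before deposit. Members and gene lists were chosen with earlier results of these data known. Counts were summed per library, since cells are not replicates, and tested with edgeR 4.0.16 in R 4.3.3 (quasi-likelihood test, TMM, filterByExpr), with the run as a block and an FDR of 0.05. Mice were shared within a run. Deviations from tissue means correlated at 0.597 between blood and marrow, 0.550 between spleen and blood and 0.631 between spleen and marrow over 7809 genes. The SE is the log2 change over the root of its F. DESeq2 1.42.0 was an alternative. The fit was also run on simulated counts drawn without a run effect, which cannot test the block for the run. Genes that a table does not list were set to 0. The inflamed conditions, 1 pool each, were compared as ratios of CPM with exact conditional binomial intervals, and "past 2-fold" covers genes at a mean of 20 CPM or more. Named genes were the 7 members, up to 3 genes of each list with the largest called change from blood to bone marrow or past 2-fold over healthy blood, and 2 genes most like each member by log2(CPM + 10) among genes at a mean of 50 CPM. S1pr1 and Egr1 in the peritoneum were named after their values were seen. A few more named genes lie outside this rule, among them Sp4, Hdac1 and Per1 in the peritoneum, Fosb in the lung and Fkbp5 in the joint. One listed gene is not reported here. Python 3.11.15 with scipy 1.17.1 and matplotlib 3.10.9 computed intervals and figures.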

Additional observations from a re-analysis of the deposited data

Results flagged for a closer look

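Klf2 moved in opposite directions at the 2 IL-1b sites, with a ratio to healthy blood of 0.343 in the lung and 1.84 in the peritoneum (0.641 and 3.46 with TMM scaling, so that the lung was then not past 2-fold and the peritoneum was). Nr4a1 was at 0.494 times healthy blood in arthritic blood and 5.65 times in the arthritic joint (0.680 and 8.31 with TMM). Each condition was 1 pool, and these differences between conditions were not tested.

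Klf4, which the gated neutrophils held at 0.735, 1.88 and 0.549 CPM in blood of run 1 and bone marrow of runs 1 and 2, was at 110 CPM, 65.2 CPM and 42.9 CPM in the cells outside the gate of these libraries, which no comparison used. Summed monocyte and macrophage markers stood at 2214, 2820 and 1270 CPM in those cells, and their part in the Klf4 level was not tested.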

How the results depend on the processing

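Mice were shared by the libraries of a run, so the run was a block in the fit. With no replicate block, the members called fell from 3 to 1 between bone marrow and blood and from 2 to 0 between spleen and bone marrow, and in low-granule cells from 3 to 0 and from 2 to 0, and the block changed no other call of a member. Genes called between bone marrow and blood went from 1693 to 164. With 1 library left out, the members called ranged from 0 to 3 between bone marrow and blood and from 0 to 2 between spleen and bone marrow, and in low-granule cells from 1 to 3 between bone marrow and blood. With an arm of 1 library, that library was taken to vary like the others. All genes called ranged from 0 to 2626 between bone marrow and blood over these fits, and DESeq2 called 1093.

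In arthritic blood the members past 2-fold went from 1 to 0 with an S100 gate on the neutrophils, with TMM-scaled totals and with a minimum of 50 CPM, and in the joint from 4 to 2 with TMM and from 4 to 3 with each cell weighted equally (without Klf2). In the peritoneum they went from 3 to 4 with TMM (Klf2, 3.46-fold). In the lung the number stayed at 2 with TMM, but Nr4a1 (2.15-fold) took the place of Klf2 (0.641 times). The median share of cells with a UMI, 4.76% after thinning, was 12.3% without it. No value reversed for a result with a call. The fits on cells without lymphocyte markers, DESeq2 and left-out libraries in low-granule cells, and the counts of the other gene lists with TMM, were chosen after seeing the data. Counts of Klf4, Nr4a2 and Nr4a3 were low in healthy tissue, where no gated library held more than 9 UMIs of any of them. The cause of these changes was not tested.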
